A study of Homo sapiens with 3 samples.

Results

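The 9 keratin genes KRT7, KRT8, KRT10, KRT13, KRT15, KRT18, KRT19, KRT80 and KRT81 were measured in spheroids of the estrogen receptor-positive breast cancer cell line CAMA-1. The genes were taken by symbol, and all 9 were present among the 22499 rows with a gene symbol in each of 3 single-cell RNA-seq libraries. Spheroids were started from 2000 cells and held sensitive CAMA-1 cells only, resistant cells only, or 50% of each, and every spheroid was kept for 11 days with 1 µM ribociclib, an inhibitor of the cyclin-dependent kinases that drive entry into the cell cycle. The resistant lineage had been derived from CAMA-1 by prolonged culture with ribociclib, sensitive cells carried Venus and resistant cells mCherry as a fluorescent label, and no spheroid without ribociclib was among the libraries. Each condition was 1 library, so a population had no replicate, no test was possible, and every interval covers counting error only. Cells had been frozen and thawed before loading.

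The deposited annotation assigned cells to 4 populations, which were sensitive cells in monoculture (3329 cells), sensitive cells in coculture (2059 cells), resistant cells in coculture (6292 cells) and resistant cells in monoculture (7557 cells). Levels are given as CPM, the unique molecular identifiers (UMIs, each marking 1 captured transcript) of a gene when the UMIs of a population are scaled to 1000000, with 95% exact Poisson intervals where an interval is printed. The assay reads transcript 3′ ends, so CPM was not divided by transcript length, and levels of different genes also differ by how well each 3′ end was captured. Cells of a population are parts of 1 library and not replicates of it.

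Keratins are the intermediate filament proteins of epithelia. A keratin filament forms from heterodimers that join a type I keratin, which is acidic, with a type II keratin, which is neutral or basic, so that a cell needs members of both types. KRT8 (type II) and KRT18 (type I) are the pair of simple epithelia and, with KRT19 and KRT7, mark the luminal cells of the mammary duct, whereas basal and myoepithelial cells use other pairs such as KRT5 with KRT14. KRT10 belongs to the differentiated layers of the epidermis, KRT13 to stratified mucosa, KRT15 to basal cells of stratified epithelia and the hair follicle, KRT80 to differentiating epithelia, and KRT81 is a hair keratin of the hair cortex. The 4 type II members here were KRT7, KRT8, KRT80 and KRT81, and the 5 type I members were KRT10, KRT13, KRT15, KRT18 and KRT19.

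The genes fall into the type I and type II keratin gene clusters, which lie on different chromosomes. On GRCh37, the build named in the submitters' processing notes, the type II genes lay on chromosome 12, KRT80 (ENSG00000167767) at 52562780-52585798 on the minus strand, KRT7 (ENSG00000135480) at 52626304-52645970 on the plus strand, KRT81 (ENSG00000205426) at 52679697-52685318 on the minus strand and KRT8 (ENSG00000170421) at 53290971-53343738 on the minus strand. KRT18 (ENSG00000111057), a type I gene, lay beside KRT8 at 53342655-53346690 on the plus strand, and the annotated spans of the pair overlapped on opposite strands. The other type I genes lay on chromosome 17 on the minus strand, KRT10 (ENSG00000186395) at 38974369-38978866, KRT13 (ENSG00000171401) at 39657233-39661957, KRT15 (ENSG00000171346) at 39669997-39678781 and KRT19 (ENSG00000171345) at 39679869-39684560.

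Promoter sequence was held in the RefSeq table (GRCh38.p14) for 2 of the 9 members, KRT8 and KRT10. They are shown because the table held no other member, and were not chosen by level or by profile over the cell cycle. The 250 bases before the listed start are printed 5′ to 3′ on the coding strand, at chr12:52926470-52926719 for KRT8 and chr17:40822615-40822864 for KRT10, both on the minus strand. KRT8 has several annotated starts and the window belongs to the start the table lists. Capitals mark the only match, on either strand, among the 4 motifs searched.
KRT8: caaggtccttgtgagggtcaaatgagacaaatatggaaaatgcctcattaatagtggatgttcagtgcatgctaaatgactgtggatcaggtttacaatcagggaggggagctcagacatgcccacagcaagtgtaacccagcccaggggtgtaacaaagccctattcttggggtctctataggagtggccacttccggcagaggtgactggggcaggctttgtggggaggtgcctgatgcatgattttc
KRT10: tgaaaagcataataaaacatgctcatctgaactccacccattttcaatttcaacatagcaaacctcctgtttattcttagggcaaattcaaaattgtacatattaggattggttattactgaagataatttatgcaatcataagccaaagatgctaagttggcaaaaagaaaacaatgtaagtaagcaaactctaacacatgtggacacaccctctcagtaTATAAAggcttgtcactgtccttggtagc

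The motifs were the GC box GGGCGG, the TATA box TATAAA, the AP-1 element TGANTCA and the palindromic estrogen response element, each searched on both strands. The KRT10 window held a TATA box that began 29 bases before the start, and 10.7% of the 35116 windows of the same length in the table held one. No other match was found in the KRT10 window and none in the KRT8 window, while 42.6% of all windows held the GC box, 6.57% the AP-1 element and 0.0399% the estrogen response element. The GC content was 34.8% for KRT10 and 50.4% for KRT8, against a median of 58.0% over all windows.

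The populations differed in depth and in cell cycle phase, and both are given here once. Sensitive cells had a median of 27622 UMIs in monoculture and 34056 in coculture, and resistant cells 35443 in monoculture and 30686.5 in coculture. The median share of mitochondrial UMIs was 20.9% and 17.3% in sensitive cells in monoculture and coculture, and 15.4% and 15.2% in resistant cells. The deposited phase was G1 for 89.0% of sensitive cells in monoculture and 55.3% in coculture, and for 50.0% and 49.7% of resistant cells. These values moved with the populations, and their part in the levels was not tested except where values within a phase, among cells of at most 45000 UMIs or without mitochondrial genes are given. The libraries shared 34 to 60 cell barcodes by pair, of which 7 to 17 were annotated in both. All 9 luminal epithelial markers, among them KRT7, KRT8, KRT18 and KRT19, were at 1 CPM or more in each population and summed to 9094 to 10997 CPM. The 8 basal or myoepithelial markers, of which 0 to 5 were at 0 UMIs, summed to 0.742 to 5.02 CPM, 2 of 3 endothelial markers were found and summed to 0.0701 to 0.301 CPM, and the 4 immune markers to 0.405 to 1.16 CPM. The basal keratin KRT5 was at 0.0104 CPM in sensitive monoculture, 0.00501 CPM in resistant coculture and at 0 UMIs in the other populations. Of the 5 fibroblast markers, which summed to 2.64 to 38.4 CPM, COL3A1 was at 35.2 CPM in sensitive monoculture, 18.7 CPM in sensitive coculture, 2.12 CPM in resistant coculture and 0.181 CPM in resistant monoculture, and its part in the keratin levels was not tested.

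The luminal set of KRT8, KRT18 and KRT19 stood at the top in every population. KRT19, KRT18 and KRT8 were at 1683 CPM or more throughout, KRT7 lay between 719 and 1127 CPM, KRT10 between 245 and 353 CPM, KRT80 and KRT81 between 10.7 and 74.5 CPM, KRT15 between 2.75 and 7.20 CPM, and KRT13 at or below 0.0846 CPM. The 9 genes summed to 9968 CPM in sensitive monoculture, 9166 CPM in sensitive coculture, 8031 CPM in resistant coculture and 9916 CPM in resistant monoculture. They held 99.8% to 99.9% of the UMIs of all 55 keratin rows.

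**Figure D1:**
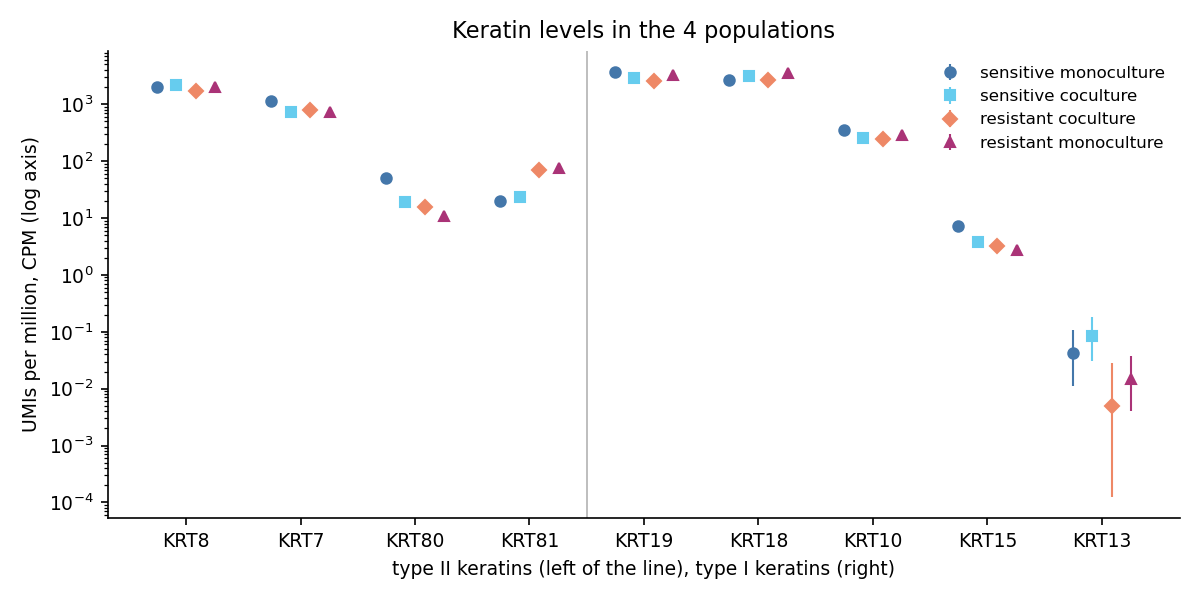
CPM of each keratin (log axis) in the 4 populations, with type II genes left of the line and type I genes right of it. Points are the summed UMIs of a population scaled to 1000000 and bars 95% exact Poisson intervals, often smaller than the point. KRT81 stood at 19.5 and 23.7 CPM in the sensitive populations and at 68.8 and 74.5 CPM in the resistant ones, and KRT80 was highest, at 50.2 CPM, in sensitive monoculture.

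Of the luminal keratins, KRT8, the main type II keratin of simple epithelia, was nearly level between the monocultures over all phases. KRT8 was at 2035 CPM in sensitive monoculture, 2139 CPM in sensitive coculture, 1683 CPM in resistant coculture and 2024 CPM in resistant monoculture. The resistant cells in coculture were the low group for KRT8, and the fold between the monocultures was 0.995 over all phases. Within phases the monocultures differed in opposite directions. In G1 cells KRT8 was at 2027 CPM in sensitive and 2218 CPM in resistant monoculture. In S cells it was at 2500 and 1972 CPM and in G2M cells at 1675 and 1680 CPM. The sign of the ratio between the monocultures held in 6 of 13 settings.

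KRT18, its type I partner, was at 2705 CPM in sensitive monoculture, 3078 CPM in sensitive coculture, 2646 CPM in resistant coculture and 3579 CPM in resistant monoculture. Resistant monoculture was the high group, 1.32-fold above sensitive monoculture (1.32 to 1.33) and 1.35-fold above resistant cells in coculture. KRT19, the type I keratin that lacks most of the tail domain, was at 3671, 2923, 2571 and 3218 CPM in the same order, and both lineages were lower in coculture than in monoculture, with folds of 0.796 in sensitive and 0.799 in resistant cells. None of the 3 genes passed 1.5-fold between populations.

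The ratio of KRT18 to KRT8 differed between populations although each gene stayed within 1.5-fold. KRT18 UMIs per KRT8 UMI numbered 1.33 (1.32 to 1.34) in monoculture and 1.44 (1.43 to 1.45) in coculture for sensitive cells, and 1.77 (1.76 to 1.77) in monoculture and 1.57 (1.57 to 1.58) in coculture for resistant cells. The ratio was thus lowest in sensitive monoculture and highest in resistant monoculture, with the coculture populations between them. Within each phase the order was again sensitive monoculture, sensitive coculture, resistant coculture, resistant monoculture from lowest to highest, with 1.33, 1.40, 1.54 and 1.74 in G1 cells, 1.32, 1.48, 1.58 and 1.78 in S cells and 1.41, 1.49, 1.64 and 1.85 in G2M cells. The sum of the type I members over the sum of the type II members was 2.09 in monoculture and 2.16 in coculture for sensitive cells and 2.13 in coculture for resistant cells, whereas resistant monoculture stood apart at 2.50.

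**Figure D2:**
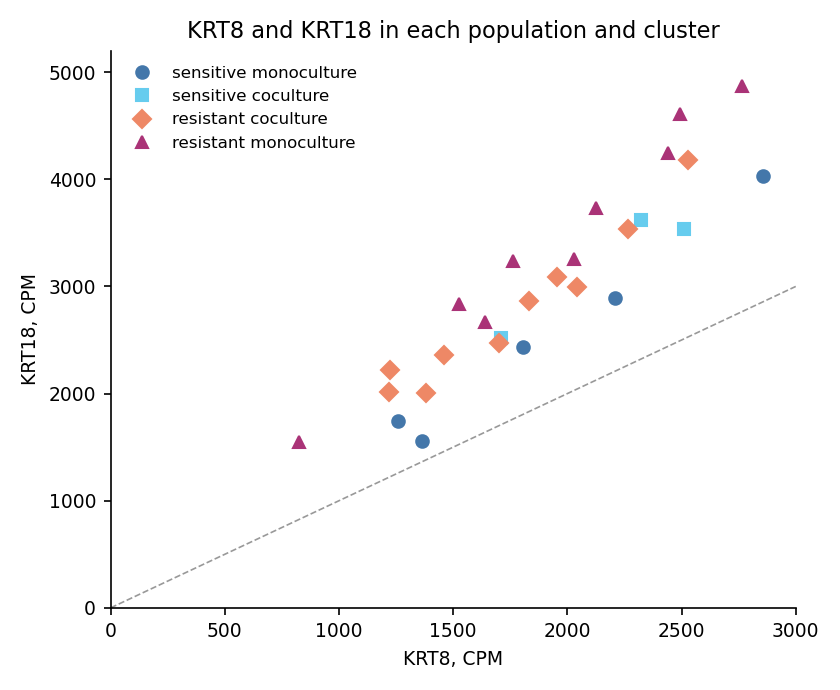
CPM of KRT8 (x axis) and KRT18 (y axis) in each of the 27 combinations of population and deposited cluster that held 50 or more cells, with a dashed line where both are equal. All points lie above the line, with KRT18 at 1.14 to 1.41 times KRT8 in sensitive monoculture and at 1.60 to 1.88 times in resistant monoculture.

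Part of the KRT8 and KRT18 transcript ends cannot be told from processed pseudogenes by short stretches. GENCODE annotated 51 pseudogenes named for KRT8, 68 for KRT18 and 5 for KRT19. In the last 500 bases of the reference transcript, 61.7% of the 31-base stretches of KRT18, 41.5% of those of KRT8 and 8.09% of those of KRT19 occurred in another annotated transcript. Of 91-base stretches, 3.41% were shared for KRT8, with KRT8P3, and none for the other 8 members. The effect of reads left out for matching several places was not tested.

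KRT7, the type II keratin of glandular ducts, was highest in sensitive monoculture, at 1127 CPM, against 719 CPM in sensitive coculture, 799 CPM in resistant coculture and 722 CPM in resistant monoculture. Sensitive coculture and resistant monoculture were nearly level and sensitive monoculture stood above all others. The fold of sensitive monoculture over sensitive coculture was 1.57 (1.55 to 1.58), just past 1.5-fold. Within G1 cells it was 1.30, within S cells 1.41 and within G2M cells 1.18, so that cells of the same phase stayed within 1.5-fold. The same held between the monocultures, where KRT7 was 1.56-fold lower in resistant cells over all phases and 1.26-, 1.37- and 1.17-fold lower in G1, S and G2M cells. With TMM scaling, which shifts all log2 ratios between the monocultures by 0.11, the log2 ratio of KRT7 was -0.53 in place of -0.64 and no longer past 1.5-fold.

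KRT80, a type II keratin tied to epithelial differentiation, had a wide fold between the monocultures. It was at 50.2 CPM (48.7 to 51.6) in sensitive monoculture, 19.2 CPM (18.2 to 20.2) in sensitive coculture, 15.7 CPM in resistant coculture and 10.7 CPM in resistant monoculture. The intervals of the 4 populations did not overlap, and sensitive monoculture stood far above the rest. KRT80 was 2.62-fold lower in sensitive coculture than in sensitive monoculture (2.46 to 2.78) and 4.70-fold lower in resistant than in sensitive monoculture. In resistant cells the direction was the other way, with a fold of 1.47 (1.39 to 1.54) in coculture over monoculture, within 1.5-fold. Within phases the sensitive cells in coculture were 2.17-fold lower in G1, 1.85-fold in S and 2.25-fold in G2M. With each cell thinned to 5000 UMIs, 22.3% of sensitive monoculture cells held a KRT80 UMI, 9.91% of sensitive coculture, 7.98% of resistant coculture and 5.36% of resistant monoculture cells (unthinned 66.7%, 41.7%, 34.5% and 27.2%).

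KRT15, the type I keratin of basal layers, had the same order of CPM as KRT80 at a low level. It was at 7.20 CPM (6.67 to 7.76) in sensitive monoculture, 3.74 CPM (3.30 to 4.22) in sensitive coculture, 3.20 CPM in resistant coculture and 2.75 CPM in resistant monoculture. It was 1.93-fold lower in sensitive coculture than in sensitive monoculture and 2.62-fold lower in resistant than in sensitive monoculture. Both calls were lost with a pseudocount of 10 CPM (log2 ratios of -0.32 and -0.43), and the first also in S cells (-0.33), where it rests on 48 and 25 UMIs. The fold of resistant over sensitive cells within the coculture was 0.856 (0.741 to 0.992). These levels rest on 693, 265, 639 and 745 UMIs, and 3.36% (2.78 to 4.03), 1.51% (1.03 to 2.13), 1.54% and 1.48% (1.22 to 1.78) of cells held a UMI after thinning (unthinned 16.9%, 10.9%, 8.84% and 8.57%). By that share sensitive monoculture stood above the rest, and the other three did not differ beyond their intervals.

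**Figure D3:**
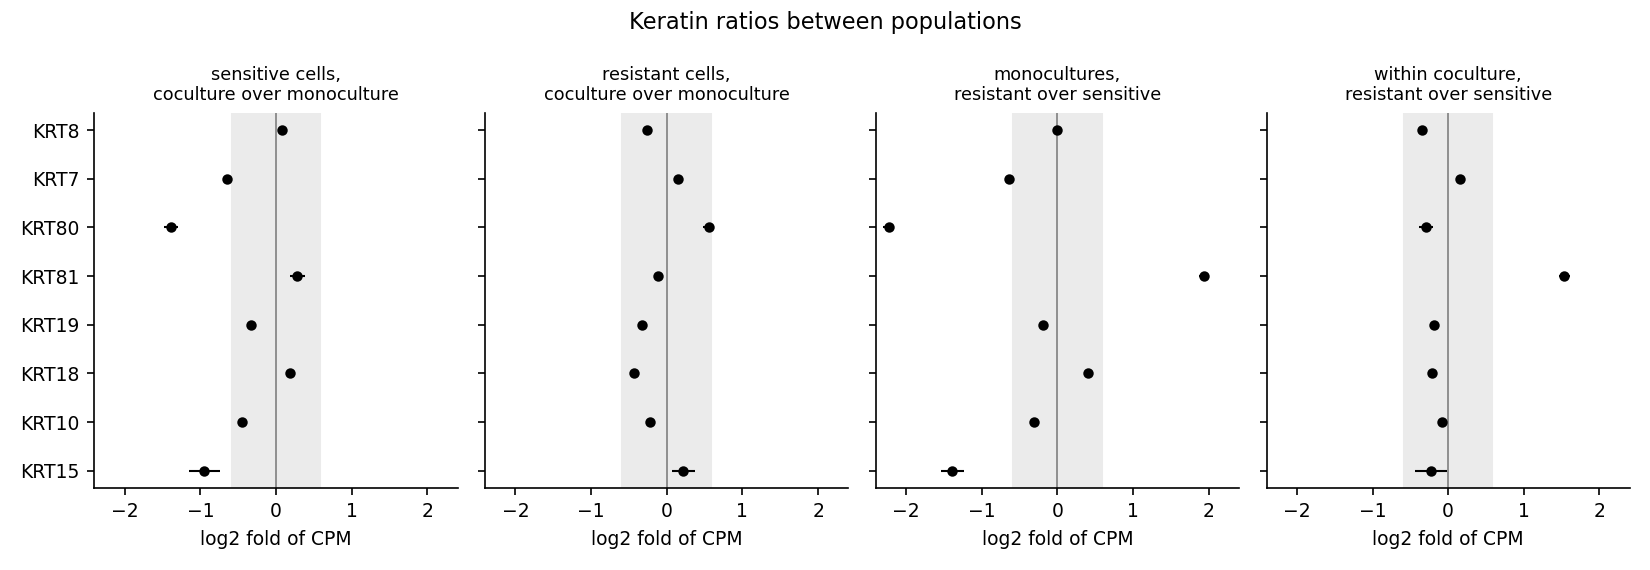
Log2 fold of CPM for the 8 keratins with 50 or more UMIs in the 4 comparisons, with 95% exact conditional binomial intervals and the range within 1.5-fold shaded. KRT80 and KRT15, and at its edge KRT7, lie left of the shading in both comparisons with sensitive monoculture, KRT81 lies right of it in both comparisons of resistant with sensitive cells, and no gene leaves it in the resistant lineage.

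Counted over the set, 8 of the 9 members had the minimum of 50 UMIs, and KRT13 did not. In the sensitive lineage, 3 of 8 (KRT7, KRT15 and KRT80) were past 1.5-fold between coculture and monoculture, all lower in coculture. The ratio was taken on log2(CPM + 1), and 11.0% of 12327 genes passed in either direction, 5.91% lower. The median log2 ratio was -0.39 over the 8 keratins and -0.05 over all genes. The phases differ between these populations, and the genes past the limit changed within a phase. In G1 and in G2M cells KRT15 and KRT80 were lower and KRT81 higher. In S cells KRT80 was lower and KRT81 higher. Shares of all genes past the limit within a phase are not given. The 5th and 95th percentiles of the log2 ratio over all genes were -0.59 and 0.51 in G1 cells. They were -0.54 and 0.51 in S cells and -0.56 and 0.49 in G2M cells. In the resistant lineage 0 of 8 passed, where 0.699% of 13156 genes did. There the 5th and 95th percentiles of all genes were -0.25 and 0.37. KRT8 (-0.27), KRT19 (-0.32) and KRT18 (-0.44) lay below that range, KRT80 (0.51) above it and the other tested members within it. Between the monocultures 4 of 8 passed, KRT81 higher and KRT7, KRT15 and KRT80 lower in resistant cells, where 19.2% of 12970 genes passed, 6.66% higher and 12.5% lower. Within the coculture 1 of 8 passed, KRT81, higher in resistant cells, where 6.14% of 12774 genes did, 2.04% higher. The keratin and all-gene medians were -0.17 and 0.03 in the resistant lineage, -0.25 and -0.07 between the monocultures and -0.18 and 0.00 within the coculture. Each population enters 2 of the comparisons, and library and condition cannot be told apart in the 3 that set libraries against each other.

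KRT81, a type II hair keratin, went the other way and was the 1 member past 1.5-fold between the lineages within 1 library. It was at 19.5 CPM in sensitive monoculture, 23.7 CPM in sensitive coculture, 68.8 CPM in resistant coculture and 74.5 CPM in resistant monoculture. The resistant populations were both above the sensitive ones, 3.82-fold between the monocultures (3.64 to 4.01) and 2.90-fold within the coculture (2.76 to 3.05). Within G1, S and G2M cells the fold between the monocultures was 5.07, 10.5 and 8.97, and within the coculture 2.87, 4.20 and 3.01. Sensitive S cells in monoculture were at 3.78 CPM (2.45 to 5.58) and resistant S cells at 39.7 CPM. The sensitive monoculture levels rest on 25 UMIs over 176 S cells and 33 UMIs over 190 G2M cells, so folds against them are loose. Sensitive cells in coculture were also above those in monoculture within each phase, 1.60-fold in G1, 2.91-fold in S and 2.47-fold in G2M cells, against 1.22-fold over all phases.

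The KRT81 UMIs came from very few cells, and the Poisson intervals do not cover that. Of 3329 sensitive cells in monoculture, 6 held 50% of the KRT81 UMIs, against 13 of 2059 in sensitive coculture, 55 of 6292 in resistant coculture and 67 of 7557 in resistant monoculture. Cells with 10 or more KRT81 UMIs numbered 29, 27, 249 and 327 in the same order, and the highest cell held 263, 275, 478 and 644 UMIs. These cells thus existed in each population and were most common in resistant cells, at 0.871%, 1.31%, 3.96% and 4.33% of cells.

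Among the remaining cells, those with fewer than 10 UMIs, KRT81 was at 2.41 CPM (2.11 to 2.74) in sensitive monoculture, 8.70 CPM (8.02 to 9.42) in sensitive coculture, 14.7 CPM (14.1 to 15.2) in resistant coculture and 12.8 CPM (12.4 to 13.3) in resistant monoculture. These cells were chosen by their own KRT81 count, which moves with depth, so the values are a description. The fold of sensitive coculture over monoculture was 3.61 among them and 1.22 (1.14 to 1.30) over all cells, and the resistant-to-sensitive fold was 5.32 between the monocultures and 1.69 within the coculture. The share of cells with a KRT81 UMI, which does not weight cells by their UMIs, was lowest in sensitive monoculture, at 1.98% (1.54 to 2.52) of sensitive cells in monoculture and 4.91% (4.01 to 5.93) in coculture, and 9.25% (8.61 to 9.93) of resistant cells in monoculture and 9.09% (8.39 to 9.83) in coculture after thinning to 5000 UMIs. The resistant populations did not differ beyond their intervals. Without thinning the shares were 4.87% and 19.4% of sensitive and 26.5% and 26.0% of resistant cells. Sensitive and resistant cells of the coculture were loaded together as 1 library, and no cell type without the gene was annotated there to gauge free RNA. With 10% of their UMIs taken off by the profile of the resistant cells, the log2 ratio of sensitive coculture over monoculture went from 0.27 to -0.06, and over cells with 2 or more transgene UMIs it was -0.02. The part of free RNA in the shares of cells and in the levels over cells with fewer than 10 KRT81 UMIs was not tested.

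**Figure D4:**
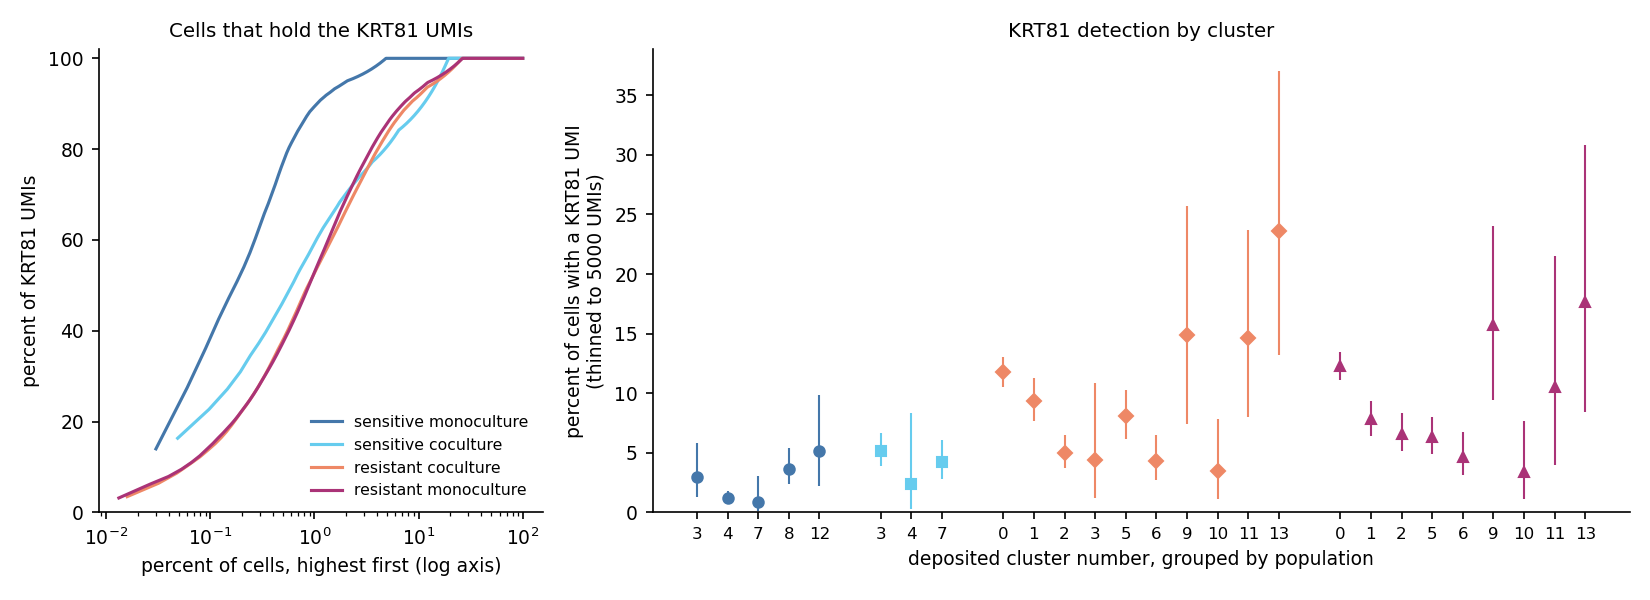
Left, the percent of a population's KRT81 UMIs (y axis) held by its cells ranked from highest down (x axis, log scale). Right, the percent of cells with a KRT81 UMI after thinning to 5000 UMIs, by deposited cluster within population, with 95% exact binomial intervals, from 0.862% in cluster 7 of sensitive monoculture to 23.6% in cluster 13 of resistant coculture.

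KRT10, the type I keratin of the suprabasal epidermis whose usual partner is KRT1, was at 353 CPM in sensitive monoculture, 260 CPM in sensitive coculture, 245 CPM in resistant coculture and 285 CPM in resistant monoculture. It stayed within 1.5-fold in all 4 comparisons and was highest in sensitive monoculture, 1.36-fold above sensitive coculture (1.34 to 1.39). KRT13, a type I keratin of mucosa, had 4, 6, 1 and 4 UMIs over all cells of the populations in the same order. Those counts are 0.0416, 0.0846, 0.00501 and 0.0148 CPM and allow no comparison.

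The keratins fell into different profiles over the cell cycle. KRT7, KRT19, KRT80 and KRT81 were past 1.5-fold lower in G2M than in G1 cells in each of the 4 populations, so that 4 of 8 members passed each time. The call for KRT19 was lost over cells of at most 45000 UMIs in both monocultures (log2 ratios of -0.55 in sensitive and -0.58 in resistant cells), and in sensitive monoculture also with each cell weighing the same (-0.56). The call for KRT80 was lost with a pseudocount of 10 CPM in resistant coculture (-0.55) and resistant monoculture (-0.45). Of all genes tested, 8.56% were lower in sensitive and 1.19% in resistant monoculture, and in coculture 2.89% in sensitive and 1.55% in resistant cells. For KRT7, G1, S and G2M levels were 1206, 777 and 508 CPM in sensitive monoculture, 930, 550 and 431 CPM in sensitive coculture, 1069, 632 and 491 CPM in resistant coculture and 955, 568 and 435 CPM in resistant monoculture. KRT7 thus stepped down from G1 to S and from S to G2M in all 4 populations, 2.16- to 2.37-fold from G1 to G2M.

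KRT19 was 1.56- to 1.63-fold lower in G2M than in G1 cells and KRT80 1.86- to 2.07-fold lower. KRT81 was 4.61-fold lower in sensitive monoculture and 2.83- to 2.98-fold lower in both coculture populations, and in resistant monoculture it was at 112 CPM in G1 and 42.9 CPM in G2M cells. All 29 sensitive monoculture cells with 10 or more KRT81 UMIs carried the phase G1, and after thinning 2.06% of G1 and 2.11% of G2M cells there held a KRT81 UMI. In sensitive coculture 22 of the 27 such cells were in G1, and the shares were 5.36% of G1 and 5.18% of G2M cells. The lower G2M level was thus not seen in the share of cells in sensitive coculture, with intervals of 4.12 to 6.83 and 3.35 to 7.61. In sensitive monoculture the G2M share rests on 4 of 190 cells (0.577 to 5.30), too few to show a fall or its absence. In resistant cells the shares were 11.0% and 6.75% in coculture and 11.2% and 7.74% in monoculture. KRT8 was lower in G2M by 1.21- to 1.45-fold and KRT18 by 1.14- to 1.37-fold, within the limit. In sensitive coculture KRT8 passed it in 2 of 9 settings, with a log2 ratio of -0.61 over cells with 2 or more transgene UMIs. KRT10 was the exception, with G2M over G1 folds of 1.05 (1.01 to 1.09), 1.07 (1.04 to 1.11), 1.12 (1.10 to 1.15) and 1.16 (1.14 to 1.18) in the 4 populations. In sensitive monoculture its direction turned with TMM factors, to -0.03 on the log2 scale.

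From G1 to S cells, 4 of 8 members were past 1.5-fold lower in sensitive monoculture, 3 in sensitive coculture and 4 in each resistant population, where 6.67%, 2.07%, 0.939% and 0.817% of all genes were. KRT7, KRT80 and KRT81 were lower in all 4 populations and KRT15 in all but sensitive coculture. There KRT15 was 1.60-fold lower in S cells without the pseudocount (1.16 to 2.26), on 48 UMIs in S cells. KRT15 was at 7.58, 3.78 and 5.94 CPM in G1, S and G2M cells of sensitive monoculture, 4.50, 2.81 and 3.01 CPM in sensitive coculture, 4.19, 2.07 and 2.63 CPM in resistant coculture and 3.61, 1.88 and 2.10 CPM in resistant monoculture. Its S and G2M levels had overlapping counting intervals in each population, and it stayed within 1.5-fold between G2M and G1 cells on log2(CPM + 1).

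KRT8 and KRT18 were higher in S than in G1 cells in sensitive monoculture and were not higher in the other populations. KRT8 was at 2027 CPM in G1 and 2500 CPM in S cells of sensitive monoculture, and KRT18 at 2687 and 3287 CPM. In resistant coculture the same steps ran downward, from 1904 to 1605 CPM for KRT8 and from 2942 to 2529 CPM for KRT18. The folds of S over G1 were 0.889 for KRT8 and 0.910 for KRT18 in resistant monoculture. In sensitive coculture KRT8 had a fold of 0.945 and KRT18 was level, at 0.993 (0.984 to 1.00). Sensitive monoculture held 176 S cells, the fewest of the 4 populations.

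**Figure D5:**
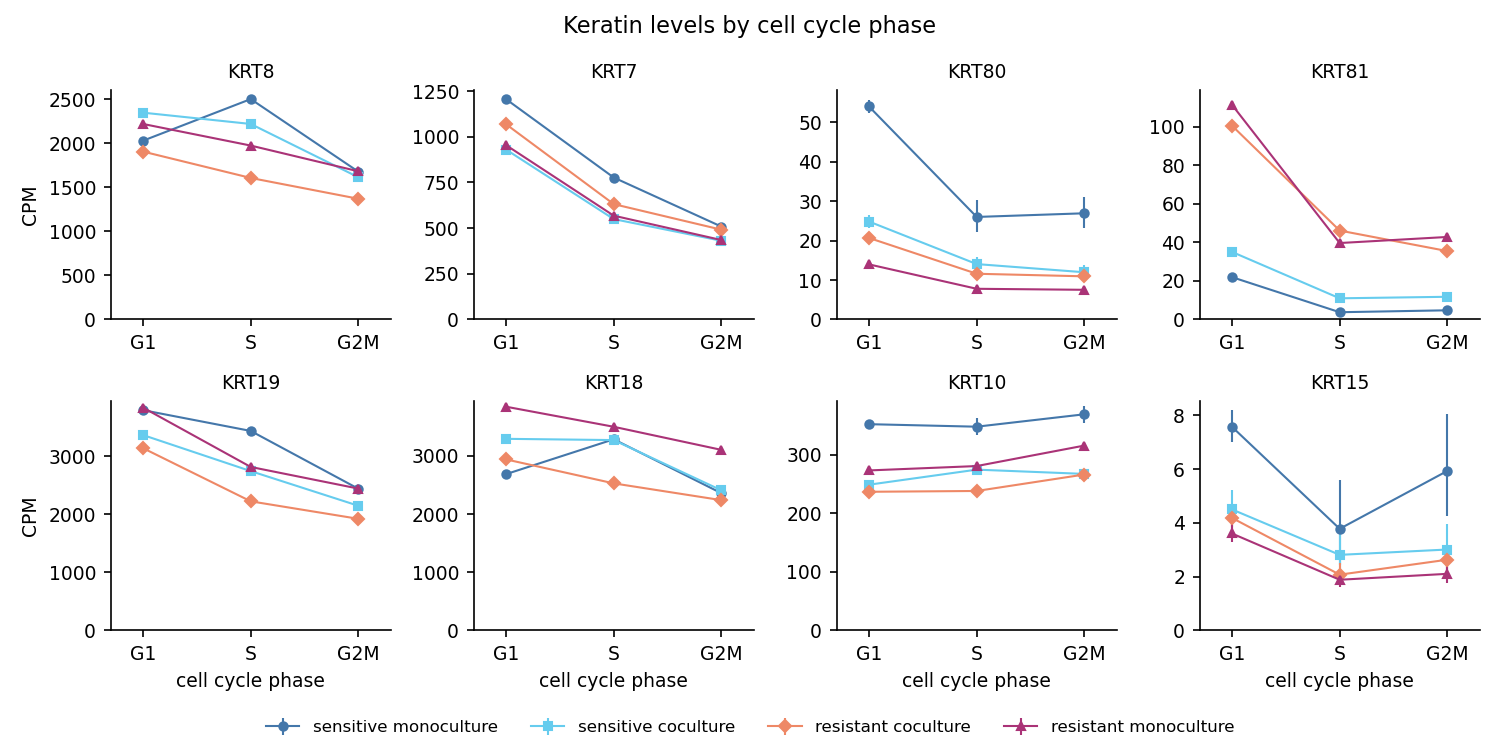
CPM of the 8 keratins in cells of deposited phase G1, S and G2M, 1 line for each population, with 95% exact Poisson intervals. KRT7, KRT19, KRT80 and KRT81 are lower in G2M than in G1 in each population, and KRT10 is level or slightly higher, from 249 to 267 CPM in sensitive coculture.

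The authors built the deposited clusters from the most variable genes of the same cells, which may include keratins, so their levels are a description only. In sensitive monoculture KRT7, KRT80 and KRT81 were highest in cluster 8 and KRT8 and KRT18 in cluster 3. There cluster 8 (681 cells) held KRT7 at 1933 CPM, KRT80 at 85.3 CPM, KRT8 at 1256 CPM and KRT18 at 1747 CPM. Cluster 4, the main one with 1945 cells, held KRT7 at 1058 CPM, KRT80 at 48.1 CPM, KRT8 at 2208 CPM and KRT18 at 2891 CPM. Cluster 8 was thus high in KRT7 and KRT80 and low in KRT8 and KRT18, its type I to type II ratio was 1.62 against 2.15 in cluster 4, and its median depth was 21423 UMIs against 29523 UMIs. Cluster 7 (232 cells) had the lowest KRT7 and KRT80 of that population, 546 and 21.5 CPM.

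Cluster 8 also held 73.7% of the KRT81 UMIs of sensitive monoculture in 20.5% of that population's cells, at 92.1 CPM against 3.11 CPM in cluster 4. There 4 cells held 50% of those UMIs and 17 cells held 10 or more, and the thinned share of cells with a UMI was 3.67% (2.39 to 5.37) in cluster 8 and 1.18% (0.751 to 1.77) in cluster 4. Among resistant cells, cluster 13 was high in several members. In coculture (55 cells) it held KRT81 at 328 CPM, KRT7 at 1396 CPM, KRT80 at 37.7 CPM and KRT18 at 4184 CPM, and in monoculture (51 cells) KRT81 at 165 CPM, KRT7 at 1192 CPM and KRT80 at 29.9 CPM. Of these cells, 3 in coculture and 2 in monoculture held 50% of the cluster's KRT81 UMIs. Its thinned shares of cells with a KRT81 UMI were 23.6% (13.2 to 37.0) and 17.6% (8.40 to 30.9). Those intervals overlap the ones of clusters 9 and 11. Cluster 9 of resistant monoculture reached 246 CPM of KRT81, of which 1 cell held more than 50%. Cluster 11 of resistant monoculture (57 cells) was lowest in KRT8, KRT18 and KRT19, at 823, 1551 and 1125 CPM, and highest in KRT10, at 408 CPM, with a median mitochondrial share of 19.6% where the population had 15.4%.

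Cell by cell, KRT8 and KRT18 went together most closely among the pairs described, KRT8 and KRT19 less so and pairs with KRT7 weakly. Within G1 cells, Pearson's r of the log-normalised levels of KRT8 and KRT18 was 0.84 over 2963 sensitive cells in monoculture, 0.88 over 1138 sensitive cells in coculture, 0.86 over 3125 resistant cells in coculture and 0.87 over 3781 resistant cells in monoculture. It was 0.55 to 0.65 for KRT8 and KRT19, 0.21 to 0.31 for KRT7 and KRT19, 0.20 to 0.31 for KRT7 and KRT80 and 0.05 to 0.14 for KRT7 and KRT8. Cells of a population share a library, and KRT8 and KRT18 also went against the mitochondrial share, with r of -0.27 to -0.43, so these values are a description.

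From cell to cell the ratio of the 95th to the 5th percentile was larger for KRT8 and KRT18 than for KRT19 in each population. Over the cells of sensitive monoculture, KRT18 ran from 725 CPM at the 5th percentile through a median of 1879 CPM to 6443 CPM at the 95th percentile, and KRT8 from 501 through 1492 to 4669 CPM. KRT19 ran from 1490 through 3401 to 6308 CPM. In resistant monoculture KRT18 ran from 962 through 3032 to 7946 CPM. KRT8, KRT18 and KRT19 were found in 98.8% or more of thinned cells in each population, and KRT7 in 90.0% to 96.2%.

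Over the 12 combinations of population and phase, the genes closest in pattern to each member were sought among 2326 genes other than the members and transgenes that averaged 50 CPM or more, by Pearson's r of log2 levels, for members with a mean of 10 CPM or more. The 12 points share 3 libraries and their depth, and the values are given without a test. For KRT7 these were DHRS7 (0.98), S100A11 (0.97) and VAMP8 (0.93), for KRT19 RAB25 (0.95), DDR1 (0.95) and CORO1B (0.93), for KRT18 NOL3 (0.88), S100A14 (0.85) and RFXANK (0.84), and for KRT8 CDK5 (0.91), HMOX2 (0.87) and ASL (0.85). KRT10 was nearest to GLRX5, CMC1 and C1orf43 (0.98, 0.97 and 0.97), KRT80 to ATP6V1G1, UBL3 and COMMD6 (0.99, 0.98 and 0.98) and KRT81 to RNF181, POLD4 and SIL1 (0.94, 0.93 and 0.91). Among the members themselves the highest values were 0.95 for KRT15 with KRT80, 0.87 for KRT8 with KRT19, 0.85 for KRT7 with KRT19 and 0.80 for KRT8 with KRT18.

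The other 46 keratin rows were nearly silent. Of these, 43 had a UMI, 3 had none and 5 reached 1 CPM in some population. KRT16, a type I keratin of activated epidermis, was at 6.73 CPM in sensitive monoculture, 1.76 CPM in sensitive coculture, 1.38 CPM in resistant coculture and 0.421 CPM in resistant monoculture. KRT14, the basal type I keratin, was at 3.58, 0.607, 0.711 and 0.221 CPM in that order, so both low type I genes were highest where KRT15 and KRT80 were. KRT24 and the hair keratins KRT32 and KRT86 lay at or below 1.84 CPM in each population. In the sensitive lineage 3 of 7 with enough UMIs (KRT14, KRT16 and KRT32) were past 1.5-fold lower in coculture, where 5.91% of all genes were. In the resistant lineage 1 of 7 (KRT16) was past it, higher in coculture, where 0.699% of all genes passed. Between the monocultures 4 of 7 passed, KRT24 higher and KRT2, KRT14 and KRT16 lower in resistant cells, where 19.2% of all genes did, and within the coculture 1 of 6 (KRT24, higher in resistant cells), where 6.14% did.

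Genes that anchor or bind keratin filaments were taken from lists of desmosome, plakin, hemidesmosome and keratin-binding genes, of which 27 of 28 were found and EPPK1 was not analysed here. In the sensitive lineage 4 of 21 with enough UMIs were past 1.5-fold, all lower in coculture, where 5.91% of all genes were lower, and the median log2 ratio of the 21 was -0.18 against -0.05 over all genes. PERP, a desmosomal membrane protein, was at 57.8 CPM in sensitive monoculture and 26.5 CPM in sensitive coculture, and DST, a plakin that links filaments to hemidesmosomes, at 77.0 and 34.7 CPM. JUP, the plaque protein plakoglobin, was at 172 and 114 CPM, and KLHL24, an adaptor that marks keratins for degradation, at 10.2 and 5.95 CPM. In the resistant lineage 0 of 22 passed, where 0.699% of all genes did.

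Between the monocultures 6 of 22 passed, all lower in resistant cells, where 12.5% of all genes were lower. They were the 4 above with PKP2, a desmosomal plaque protein (9.12 and 4.87 CPM in sensitive and resistant cells), and MACF1, a plakin that crosslinks microtubules and actin (46.5 and 27.9 CPM). Within the coculture 1 of 22 passed, the hemidesmosomal integrin subunit ITGA6, at 4.51 CPM in sensitive and 9.62 CPM in resistant cells, where 6.14% of all genes passed. DSP, desmoplakin, which ties keratins to desmosomes, was at 141, 147, 119 and 108 CPM in the 4 populations and stayed within 1.5-fold. Of the non-keratin intermediate filament genes, of which 7 of 8 were found and NEFL was not analysed here, LMNB1, a nuclear lamin, was at 12.3 CPM in sensitive monoculture and 28.1 to 30.5 CPM in the other populations. NES, which encodes nestin, was past 1.5-fold higher in sensitive coculture at about 1 CPM (1.00 against 0.322 CPM), and vimentin (VIM), the mesenchymal filament protein, lay between 0.711 and 1.29 CPM.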

How the data were processed

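Single-cell 3′ RNA-seq was analysed from 3 libraries, 1 for each condition, so no test between conditions could be made. The deposited tables held UMI counts per gene and barcode, which the authors had made with Cell Ranger 3.0.2 on GRCh37, per the methods and the submitters' processing notes. The authors' cell annotation gave each cell's population, phase, cluster and percent of mitochondrial UMIs, as deposited after filters on genes, UMIs, mitochondrial share and doublets. The methods also state a filter of 2 or more UMIs of a fluorescent label, which 39.5% of the annotated sensitive and 45.6% of the resistant cells in monoculture and 54.7% and 62.5% in coculture met in the deposited counts, so the annotation was used as deposited and the filter as an alternative. The annotation covered 3329 of 8643, 8351 of 20227 and 7557 of 11502 barcodes, and recounted UMIs per cell differed from the deposited totals by at most 6. No further doublet calling was run, the 12 other annotation columns were not used, and the rows that carried no symbol, with 0.523% to 0.591% of the UMIs, did not enter. The libraries held 173405094, 519475237 and 359599734 UMIs on the remaining rows.

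UMIs were summed over the cells of a population, phase or cluster of 50 or more cells and scaled to CPM. A gene was compared where both groups together held 50 UMIs, and called past 1.5-fold on log2(CPM + 1). Intervals are 95%, exact Poisson for levels, exact conditional binomial for folds and exact binomial (Clopper-Pearson) for shares of cells, and cover counting error only, so values have no replicate check. Shares of cells were taken after thinning each cell to 5000 UMIs. The 9 keratins are given in full, other keratins from 1 CPM upward, filament partners where past 1.5-fold, and the 3 genes closest in pattern to each keratin by the rule stated with them. DSP, VIM, COL3A1 and KRT5 were named in addition, after their values were seen. The members and gene lists were chosen with earlier results of these data known. Gene positions are from GENCODE 44 (GRCh37) and promoters from RefSeq (GRCh38.p14). Alternatives varied the pseudocount, the minimum, the fold limit, the scaling (TMM factors from edgeR 4.0.16, or without mitochondrial genes), the cells and the thinning. Scripts ran on Python 3.11.15 and R 4.3.3 and were tested on simulated data.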

Additional observations from a re-analysis of the deposited data

Results flagged for a closer look

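For KRT7, KRT8, KRT15, KRT18, KRT80 and KRT81 the log2 ratio of coculture over monoculture had opposite signs in the 2 lineages, which drew attention to them. The share of all genes with opposite signs is not given, so these signs cannot be set against it. The medians over all genes also had opposite signs, -0.05 in the sensitive and 0.03 in the resistant lineage. With 1 library for each condition the difference between the lineages was not tested, and the cells of both lineages in coculture come from the same library. KRT80 was lower in sensitive cells (-1.34) and higher in resistant cells (0.51), a difference of -1.86. For KRT15 the ratios were -0.79 and 0.16 (difference -0.96), and for KRT7 -0.65 and 0.15 (difference -0.79). KRT18 ran the other way, with 0.19 in sensitive and -0.44 in resistant cells (difference 0.62), as did KRT8 with 0.07 and -0.27 (difference 0.34). The sensitive ratio of KRT8 was 0.21 in G1 cells but -0.17 in S and -0.06 in G2M cells, so its opposite sign was lost in those phases, and that of KRT18 was -0.01 in S cells. Opposite signs were also seen for KRT81 with 0.27 and -0.11 (difference 0.38), whose sign in either lineage depended on the cells used, as given in the next part. The resistant ratios of all 6, and the sensitive ratios of KRT8, KRT18 and KRT81, were within 1.5-fold over all phases. The sensitive ratio of KRT81 was past it in 4 of 14 settings, among them each phase (0.65 in G1, 1.33 in S and 1.15 in G2M cells).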

How the results depend on the processing

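No paired analysis was possible because each condition was 1 library with no replicate number. Over the alternatives, 413 of 699 log2 ratios stayed within the 95% counting interval of the reported value, 286 moved outside it, and 0 of those past 1.5-fold changed sign. The alternatives include minimums of 10 and 500 UMIs, which leave the ratio of a kept gene unchanged. Those ratios stay the same by construction, and they also enter the counts of settings given below. Counts of keratins past the limit depend on it. At a limit of 0.32 on the log2 scale they were 5 of 8 in the sensitive lineage (32.6% of all genes passed), 3 in the resistant lineage (9.23%), 5 between the monocultures (41.9%), 2 within the coculture (19.7%), 7 between G2M and G1 in each coculture population (27.7% in sensitive and 23.1% in resistant cells), 6 in resistant monoculture (23.2%) and 4 in sensitive monoculture (42.2%). At 2-fold 1 passed in the sensitive lineage (2.56% of all genes), 0 in the resistant lineage (0.0380%), 3 between the monocultures (6.28%), 1 within the coculture (1.76%) and 2 between G2M and G1 in each population (5.14% of all genes or fewer). With cells thinned to 10000 UMIs the shares with a KRT80 UMI were 37.3%, 16.4%, 14.1% and 9.56% and with a KRT81 UMI 2.68%, 9.13%, 14.2% and 13.5%, and without thinning 66.7%, 41.7%, 34.5% and 27.2%, and 4.87%, 19.4%, 26.0% and 26.5% (sensitive monoculture, sensitive coculture, resistant coculture, resistant monoculture). KRT80 was past 1.5-fold in both comparisons with sensitive monoculture in all 13 settings, and KRT81 between lineages in all 14. KRT7 passed in 10 of 13 settings in the sensitive lineage and in 8 of 13 between the monocultures, and was within the limit in each phase. KRT15 lost its call with a pseudocount of 10 CPM in the sensitive lineage (-0.32) and between the monocultures (-0.43), and in the sensitive lineage also in S cells (-0.33), so that 11 of 13 and 12 of 13 settings passed. The KRT81 ratio in the sensitive lineage ran from -0.06 with 10% of resistant RNA taken off, through -0.02 in cells with 2 or more transgene UMIs, to 1.51 over cells with fewer than 10 KRT81 UMIs. That last setting and the scaling without mitochondrial genes were chosen after seeing the data. With all barcodes above 2000 UMIs in the monocultures, annotated or not, the log2 ratios of KRT10 and KRT19 between them were 0.07 and 0.08, not negative, and that of KRT18 was 0.70, past 1.5-fold. The small KRT81 ratio in the resistant lineage kept its sign in 10 of 13 settings. The cause was not tested. Depth limits KRT13, at 6 UMIs or fewer in each population, and KRT15 in S cells.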
